A study of Homo sapiens with 10 samples.

Results

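E2F6 and 9 further genes of the PRC1.6 complex were followed in H1 cells, an established human embryonic stem cell line. The genes are E2F6, TFDP1, MGA, MAX, PCGF6, RING1, RNF2, L3MBTL2, CBX3 and WDR5. Each was taken as the row of the expression table whose name equals the gene symbol, and all 10 were found once among 13808 gene rows and 14785 rows in all. The cells carried an shRNA (a short hairpin RNA that lowers its target transcript) against E2F6, SMARCA4, MAFK or KDM1A, or against luciferase (shLUC), which served as the control. All 5 groups share the H1 background, feeder-free culture on Matrigel in mTeSR1 medium, delivery of the hairpin by virus packaged in 293T cells, and puromycin selection. Each group had 2 libraries, described by the submitters as biological duplicates. How many hairpins were used per target, and the extent of knockdown at the protein level, were not given in the sources used here.

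PRC1.6 is a variant of Polycomb repressive complex 1. Polycomb complexes of this class place ubiquitin on histone H2A through the RING finger proteins RING1 and RNF2, and each variant is defined by its PCGF subunit, which is PCGF6 here. PRC1.6 differs from its relatives in bringing its own sequence-specific DNA-binding proteins. E2F6, a repressive E2F factor, binds E2F sites together with a DP partner such as TFDP1, and MGA binds E-box sites together with MAX and can also bind T-box sites. In embryonic stem cells the complex is known for keeping germline and meiosis genes silent.

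The binding sequences of these factors were looked up in the promoters of the genes measured, because they are the addresses at which the complex is known to act. RefSeq promoter windows on GRCh38.p14 (250 bases before to 50 bases after each transcript start, read on the gene's strand) were searched on both strands for the E2F sequence TTCCCGC (reverse complement GCGGGAA), the E-box CACGTG and the T-box sequence AGGTGTGA (reverse complement TCACACCT). These motifs share no overlapping match in the windows printed here. Over 35116 windows of the same length, 6.55% held the E2F sequence, 7.26% the E-box, 0.98% the T-box sequence and 0.544% both the E2F sequence and the E-box. All 10 genes had a window (16 windows in all), and 3 of the genes (E2F6, RNF2 and WDR5) held the E2F sequence. The E-box was held by 1 gene (WDR5, in another of its windows) and the T-box sequence by 0. By window, 3 of the 16 held the E2F sequence and 1 the E-box. The percentages above are of windows, and no share of genes was computed.

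The windows of E2F6 (the targeted gene), RNF2 (a catalytic subunit), SYCP2 and STAG3 (both meiosis genes whose values follow) are shown because each holds the E2F sequence. Matches are in capitals. They lie at bases 265 to 271 of the E2F6 window (chr2:11466112-11466411, minus strand), which is after the transcript start, at bases 140 to 146 of the RNF2 window (chr1:185045308-185045607, plus strand) and at bases 203 to 209 of the SYCP2 window (chr20:59933588-59933887, minus strand). The STAG3 window (chr7:100177668-100177967, plus strand) holds an E-box at bases 80 to 85 and the E2F sequence at bases 244 to 250. A match is a description of the letters and was not tested for binding.
E2F6: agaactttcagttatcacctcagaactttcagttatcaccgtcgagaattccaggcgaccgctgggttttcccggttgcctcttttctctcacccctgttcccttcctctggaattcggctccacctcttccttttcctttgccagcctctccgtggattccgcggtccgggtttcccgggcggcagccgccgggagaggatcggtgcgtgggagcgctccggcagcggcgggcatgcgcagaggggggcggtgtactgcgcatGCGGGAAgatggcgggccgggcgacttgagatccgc
RNF2: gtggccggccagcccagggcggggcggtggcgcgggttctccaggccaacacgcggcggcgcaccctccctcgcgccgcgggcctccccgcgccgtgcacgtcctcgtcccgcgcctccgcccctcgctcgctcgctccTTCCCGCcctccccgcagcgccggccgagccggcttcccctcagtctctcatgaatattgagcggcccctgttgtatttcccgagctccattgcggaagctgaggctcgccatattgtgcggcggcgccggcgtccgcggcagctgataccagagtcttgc
SYCP2: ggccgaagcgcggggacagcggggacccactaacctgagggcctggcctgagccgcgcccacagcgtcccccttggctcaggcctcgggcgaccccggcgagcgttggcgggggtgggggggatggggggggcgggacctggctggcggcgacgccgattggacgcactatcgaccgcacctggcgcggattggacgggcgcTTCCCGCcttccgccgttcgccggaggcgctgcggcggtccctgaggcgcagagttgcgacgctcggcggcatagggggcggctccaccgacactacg
STAG3: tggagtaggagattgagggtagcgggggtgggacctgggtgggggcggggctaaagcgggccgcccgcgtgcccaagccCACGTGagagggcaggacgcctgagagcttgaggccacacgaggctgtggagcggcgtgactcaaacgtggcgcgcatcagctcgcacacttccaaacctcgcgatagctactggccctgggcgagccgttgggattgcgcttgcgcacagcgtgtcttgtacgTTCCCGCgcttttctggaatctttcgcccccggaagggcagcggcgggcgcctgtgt

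Facts of the whole series that touch these genes are few. Values are normalized tag counts, and the median value was 594 in shE2F6 replicate 1. Library totals lay between 22836548 and 22855295, so the totals carry no information on sequencing depth, which is unknown. The 10 markers of pluripotent cells examined (POU5F1, SOX2 and NANOG among them) were all in the table. Their summed level ranged from 118991 (shSMARCA4 replicate 2) to 242982 (shKDM1A replicate 1). Neural ectoderm markers had 0 of 4 rows in the table, trophoblast markers 2 of 5 and fibroblast markers 3 of 6. Mesendoderm had 2 of 4 (EOMES and MIXL1), which summed to 4239 and 856 in shSMARCA4 and to between 10 and 58 in the other 8 libraries. Endoderm had 1 of 4, FOXA2, at 792 and 170 in shSMARCA4 and at 0 to 4 in the other 8. The shKDM1A libraries differed most from each other, with a replicate SD over all rows of 0.53 on the log2 scale against 0.264 to 0.335 in the other groups. In bulk samples, fewer cells of a type and less RNA per cell cannot be told apart.

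Differences were tested with limma over all rows, on log2(value + 1), with all 10 libraries in the fit and Benjamini-Hochberg adjustment. Of the 10 genes, 0 passed the threshold of 0.05 in shE2F6 against shLUC, where 0% of all rows passed. Likewise 0 passed in shSMARCA4 (4.18% of all rows), 0 in shMAFK (0.0135%) and 0 in shKDM1A (0.0271%). Counting by an unadjusted p under 0.05 gave 1 gene in shE2F6 (E2F6, lower, against 5.09% of all rows). It was 1 in shSMARCA4 (RING1, higher, 16.3%), 0 in shMAFK (8.77%) and 2 in shKDM1A (PCGF6 higher and TFDP1 lower, 11.5%). The F-test over the 5 groups called 0 of the 10 genes (5.07% of all rows) and had an unadjusted p under 0.05 for 1, E2F6 (21.1%). The 4 comparisons share the shLUC libraries.

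**Figure D1:**
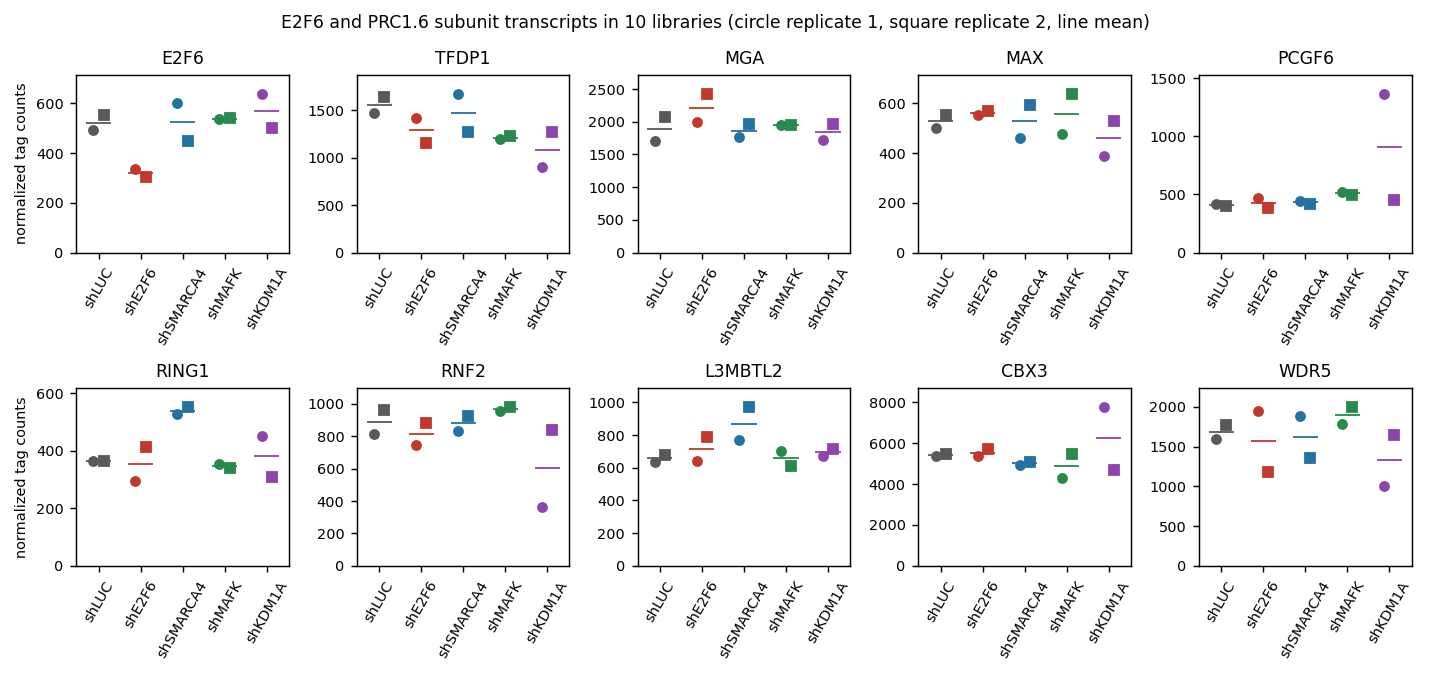
Normalized tag counts of the 10 genes (vertical axes, each from 0) in the 5 groups, with replicate 1 as a circle, replicate 2 as a square and the mean as a line. E2F6 is lowest in both shE2F6 libraries (336 and 304), RING1 is highest in both shSMARCA4 libraries (527 and 552), and PCGF6 is high in shKDM1A replicate 1 alone (1367).

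The transcript of E2F6 itself (ENSG00000169016, protein-coding, chromosome 2, 11444375 to 11466177, GRCh38) was lower in the cells with its own hairpin than in every other library. It had 336 and 304 normalized tag counts in shE2F6. In the other groups it had 491 and 553 in shLUC, 603 and 450 in shSMARCA4, 536 and 539 in shMAFK, and 639 and 499 in shKDM1A. The shE2F6 libraries do not overlap with any group, and the other 4 groups overlap among themselves. Against shLUC the log2 change was -0.70 (SE 0.19, 95% interval -1.13 to -0.27, limma adjusted p 0.774 over all rows). The other 8 libraries averaged 539 ± 61.1 (SD, n = 8), so the shE2F6 mean of 320 ± 22.6 (SD, n = 2) was 59.4% of theirs.

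The same fit gave a difference of -0.74 (SE 0.15, 95% interval -1.08 to -0.40) between shE2F6 and the mean of the other 4 groups, and limma put its adjusted p at 0.134. In this contrast 0.0541% of all rows passed and 0 of the 10 genes did. At an unadjusted p under 0.05, 9.79% of all rows and 1 of the 10 genes (E2F6) were counted. An exact two-sided permutation test of E2F6 alone, 2 libraries against 8 in 45 arrangements, gave p = 0.0222. This is the smallest that the design allows, it follows from both libraries being the lowest, and it takes the 8 libraries of 4 different groups as interchangeable. In all, 2.98% of rows had both shE2F6 libraries below the other 8, and E2F6 was the only 1 of the 10 genes that did. The difference did not pass the threshold over all rows. It was -0.79 without shKDM1A replicate 2, which leaves 1 library in that group, and ran from -0.82 to -0.67 when 1 library was left out.

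TFDP1, a DP partner with which E2F6 binds DNA (ENSG00000198176, chromosome 13), was at 1415 and 1158 normalized tag counts in shE2F6 and at 1468 and 1644 in shLUC. It had 1675 and 1269 in shSMARCA4, 1192 and 1232 in shMAFK, and 902 and 1269 in shKDM1A. Both libraries lay below both control libraries in shE2F6, shMAFK and shKDM1A. The log2 change was -0.28 (SE 0.21) in shE2F6, -0.36 (SE 0.21) in shMAFK and -0.54 (SE 0.21) in shKDM1A. None passed (limma adjusted p 1, 0.733 and 0.407), and the shKDM1A value was -0.29 without shKDM1A replicate 1.

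MGA, the large scaffold protein of the complex (ENSG00000174197, chromosome 15), had 1991 and 2430 normalized tag counts in shE2F6 and 1708 and 2071 in shLUC. The other libraries held 1728 to 1964, and the range of MGA from the lowest to the highest library was 1.42-fold. That is the narrowest of the 10 genes, but without shKDM1A replicate 1 RNF2 (1.31-fold), CBX3 (1.32), PCGF6 (1.36) and MAX (1.38) were narrower. Its log2 change in shE2F6 was 0.23 (SE 0.17, limma adjusted p 1), and the shE2F6 and shLUC values overlap. MAX, its dimer partner and also the partner of the MYC proteins (ENSG00000125952, chromosome 14), had 551 and 570 in shE2F6 and 502 and 554 in shLUC. Across all libraries MAX ran from 390 (shKDM1A replicate 1) to 639 (shMAFK replicate 2), with every knockdown overlapping the control. MAX overlaps FNTB and CHURC1-FNTB on the opposite strand, and strand use in the counting is not given in the sources used here.

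PCGF6, which gives this PRC1 variant its identity (ENSG00000156374, chromosome 10), was at 472 and 386 normalized tag counts in shE2F6, with 418 and 398 in shLUC. It had 447 and 419 in shSMARCA4 and 524 and 495 in shMAFK. In shKDM1A the libraries disagreed, with 1367 in replicate 1 and 450 in replicate 2. The mean log2 change in shKDM1A was 0.94 (SE 0.40, limma adjusted p 0.423). It was 0.14 without replicate 1 and 1.74 without replicate 2, so 1 library decides the value. Without shKDM1A replicate 1 the libraries spanned 1.36-fold, against 3.54-fold with it.

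RING1 and RNF2 are the paralogous E3 ligases that carry the catalytic activity of the complex. RING1 (ENSG00000204227, chromosome 6) had 527 and 552 normalized tag counts in shSMARCA4, above all other libraries, of which the highest held 452. It had 364 in both shLUC libraries, 294 and 412 in shE2F6, 354 and 340 in shMAFK, and 452 and 310 in shKDM1A. The log2 change in shSMARCA4 was 0.57 (SE 0.22, 95% interval 0.077 to 1.06, limma adjusted p 0.223). Of all rows, 8.62% had both shSMARCA4 libraries above the other 8, and RING1 was the 1 of the 10 genes that did. Mesendoderm and endoderm markers were also higher in the shSMARCA4 libraries (EOMES and MIXL1 summed to 4239 and 856, FOXA2 was at 792 and 170), and their part in the RING1 value was not tested.

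RNF2 (ENSG00000121481, chromosome 1) did not share that pattern, with 836 and 928 normalized tag counts in shSMARCA4 and 812 and 960 in shLUC. It had 748 and 882 in shE2F6 and 956 and 982 in shMAFK. In shKDM1A it had 364 in replicate 1 and 839 in replicate 2. Its log2 change in shKDM1A was -0.67 (SE 0.32, limma adjusted p 0.448), or -0.074 without replicate 1 and -1.28 without replicate 2. Per kilobase of exon, the ratio of RNF2 to RING1 was 0.996 and 1.18 in shLUC and 0.956 to 1.29 in shE2F6, shMAFK and shKDM1A replicate 2. It was 0.708 and 0.75 in shSMARCA4 and 0.359 in shKDM1A replicate 1. The ratio thus lay lower in those 3 libraries than in any of the other 7, and no test was applied.

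L3MBTL2, an MBT-domain subunit (ENSG00000100395, chromosome 22), had 767 and 972 normalized tag counts in shSMARCA4 and 638 and 676 in shLUC. In shE2F6 it had 644 and 786, which overlaps the control. The log2 change in shSMARCA4 was 0.39 (SE 0.18, 95% interval -0.0025 to 0.791, limma adjusted p 0.308). The remaining libraries held 613 to 716, so shSMARCA4 replicate 1 is exceeded by 1 library of another group (shE2F6 replicate 2).

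CBX3, the chromodomain protein HP1 gamma that reads methylated histone H3 lysine 9 (ENSG00000122565, chromosome 7), had 5367 and 5706 normalized tag counts in shE2F6 and 5367 and 5498 in shLUC. It had 4958 and 5108 in shSMARCA4, 4309 and 5498 in shMAFK, and 7784 and 4704 in shKDM1A. CBX3 overlaps HNRNPA2B1, a far more abundant row with values of 27326 to 35710, on the opposite strand. WDR5, a WD40 scaffold shared with the histone H3 lysine 4 methyltransferases (ENSG00000196363, chromosome 9), had 1951 and 1181 in shE2F6, which brackets the 1592 and 1776 of shLUC. Its log2 change in shE2F6 was -0.15 (SE 0.30), and it was -0.51 without shE2F6 replicate 1 and 0.21 without replicate 2.

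In shE2F6, then, the transcripts of the other 9 genes had log2 changes from -0.28 (TFDP1) to 0.23 (MGA), and all 9 had a limma adjusted p of 1. The intervals allow changes of some size: the narrowest, that of MGA, ran from -0.16 to 0.61, and the widest, that of PCGF6, from -0.85 to 0.98. Of the 10 genes, 2 had shE2F6 libraries that did not overlap with shLUC (E2F6 and TFDP1, both lower), where 40.7% of all rows did not overlap. The same count was 4 in shSMARCA4 (51%; RING1, L3MBTL2 and PCGF6 higher, CBX3 lower), 4 in shMAFK (49.1%; PCGF6 and WDR5 higher, TFDP1 and RING1 lower) and 2 in shKDM1A (38.8%; PCGF6 higher, TFDP1 lower). Each of these counts is a smaller share of the 10 genes than the percentage of all rows beside it. Ignoring sign, the middle log2 change of the 10 genes was 0.12, beside 0.16 over all rows.

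**Figure D2:**
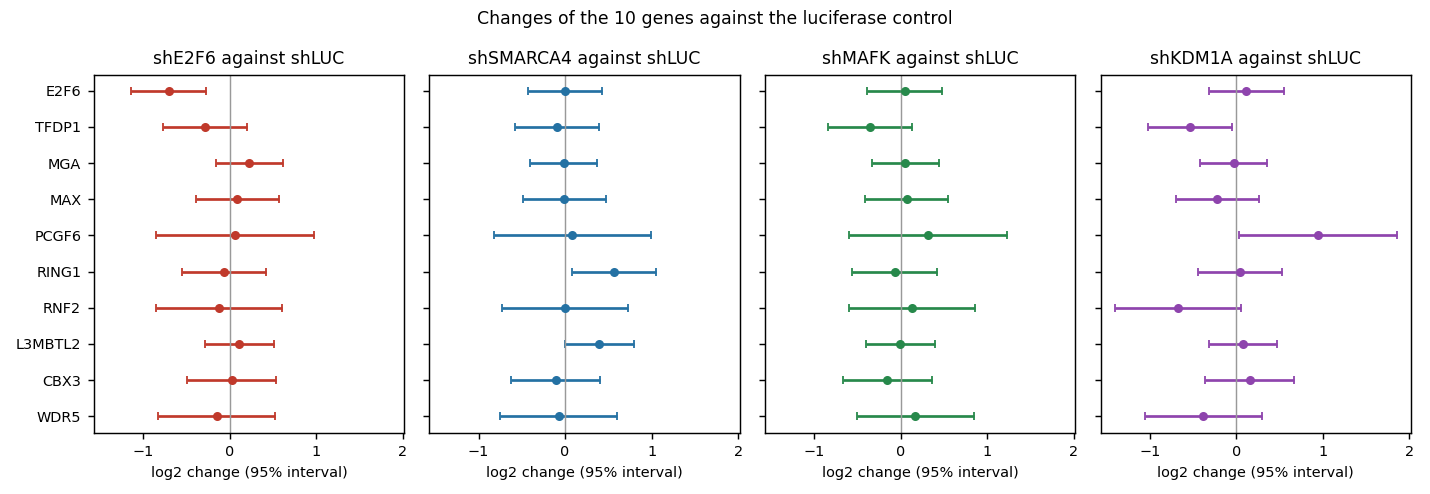
Log2 changes of the 10 genes against shLUC (horizontal axes), 1 panel per knockdown, with points at the limma estimate and bars for its 95% interval. In the shE2F6 panel only the bar of E2F6 (-1.13 to -0.27) lies clear of 0.

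The libraries of shKDM1A were read one by one because they disagree. For 7 of the 10 genes replicate 1 was the highest or the lowest of all 10 libraries: E2F6, PCGF6 and CBX3 the highest, and MAX, TFDP1, RNF2 and WDR5 the lowest. The same held for 51% of all rows, so this is common in that library. Replicate 2 was at neither end for any of the 10 genes (11.5% of all rows). The shKDM1A libraries differed from each other at least 2-fold for 2 of the genes, PCGF6 and RNF2, and for 10.7% of all rows. Fibroblast markers (COL1A1, COL1A2 and POSTN) summed to 21767 in replicate 1 and to between 2972 and 9443 in the other 9 libraries, and their part in these values was not tested.

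**Figure D3:**
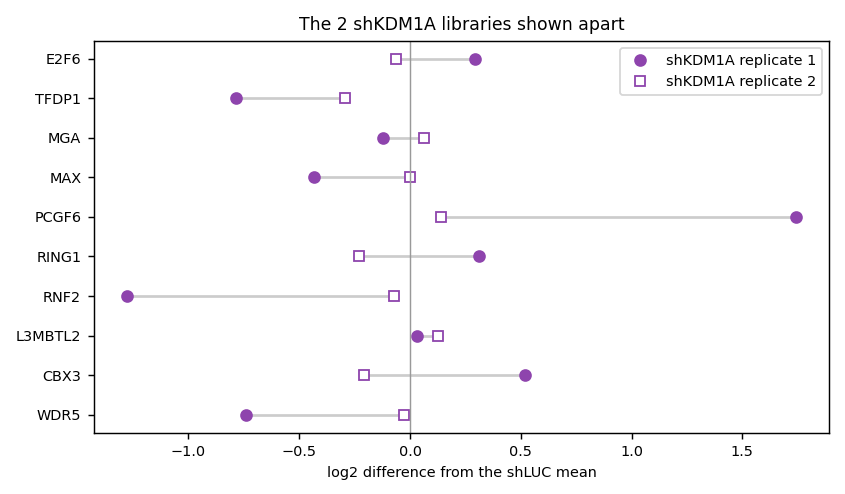
Log2 difference of each shKDM1A library from the shLUC mean (horizontal axis) for the 10 genes, with replicate 1 as filled circles and replicate 2 as open squares. Replicate 1 reaches 1.74 for PCGF6 and -1.28 for RNF2, where replicate 2 lies at 0.14 and -0.074.

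Levels of different genes were compared per length, here as normalized tag counts per kilobase of annotated exon. Whether the counts grow with transcript length is not given in the sources used here, and the order below rests on that. In shLUC, CBX3 stood first at 1171 ± 19.96 (SD, n = 2). WDR5 (464 ± 35.9) and TFDP1 (416 ± 33.3) followed, then RNF2 (218 ± 25.7) and RING1 (200.2 ± 0). PCGF6 (136 ± 4.70), E2F6 (128 ± 10.8), MAX (119 ± 8.30), MGA (107 ± 14.5) and L3MBTL2 (102 ± 4.17) came last. From PCGF6 to L3MBTL2 each neighbour in the order lay within the summed SDs of the pair, as did WDR5 with TFDP1 and RNF2 with RING1. Some genes further apart in that order, such as PCGF6 and L3MBTL2, differed by more than their summed SDs, while E2F6 and MGA did not. The deposited normalization may act differently on different genes, so these levels are approximate.

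The genes whose pattern over the 10 libraries was most like that of E2F6 were looked up among 14725 rows with a mean of at least 50. The highest Pearson r of log2 values belonged to BCHE (0.954), TSTD1 (0.947) and DDX50 (0.941), and the lowest to SLC23A2 (-0.953). Over 10 libraries such values are reached by 20 rows (size of r above 0.9), so they describe a shared order of libraries. BCHE had 136 and 121 normalized tag counts in shE2F6 and 190 to 290 elsewhere, and SLC23A2 had 870 and 880 in shE2F6 and 574 to 755 elsewhere. Neither change against shLUC passed (limma adjusted p 0.885 and 0.951).

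Genes around PRC1.6 were then examined in lists. Of 26 other subunits of PRC1 complexes, 23 were in the table. In shE2F6 0 passed with limma. At an unadjusted p under 0.05, 1 was higher (SCML2, against 2.55% of all rows) and 1 lower (PHC2, against 2.54%), and the median log2 change was -0.000067 against -0.0034 for all rows. In shSMARCA4 1 of the 23 passed, where 4.18% of all rows did. This was BMI1 (also called PCGF4, a PCGF subunit of canonical PRC1), which rose from 166 ± 14.1 to 372 ± 12.7 normalized tag counts (SD, n = 2). This is 1.16 on the log2 scale, with an SE of 0.20 and an adjusted p of 0.0159 in limma. The adjusted p was 0.135 without shLUC replicate 1, 0.107 without shLUC replicate 2, 0.0985 without shSMARCA4 replicate 1 and 0.0923 without shSMARCA4 replicate 2. The part of the mesendoderm and endoderm markers, higher in the same libraries, in the BMI1 value was not tested. In shMAFK and shKDM1A 0 of the 23 passed, with 2 at an unadjusted p under 0.05 in each, where 8.77% and 11.5% of all rows had one.

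BMI1 was at 110 and 148 in shE2F6, below the 156 of the lowest other library, as E2F6 was. Against shLUC (156 and 176) the log2 change of BMI1 in shE2F6 was -0.37 (SE 0.20, limma adjusted p 0.99). The log2 difference of BMI1 from the mean of the other 4 groups was -0.80 (SE 0.16, limma adjusted p 0.133). That mean includes the high shSMARCA4 values (381 and 363). PHC2, a Polyhomeotic subunit, had 63 and 62 normalized tag counts in shE2F6 and 209 in both shLUC libraries. It was also low in shMAFK (66 and 94) and shKDM1A (62 and 78), with 150 and 188 in shSMARCA4. Its log2 change in shE2F6 was -1.73 (SE 0.26, limma adjusted p 0.264), and in 21 of 22 alternatives PHC2 did not pass either. With a separate weight for each group it passed (limma adjusted p 0.0269), and the count over all rows rose from 0 to 21. SCML2 had 1137 and 1070 in shE2F6, above the 844 and 706 of shLUC, a log2 difference of 0.51 with an adjusted p of 0.885 in limma. In shSMARCA4 it had 1080 and 1027. CBX7 had 129 and 67 against 132 and 209 (limma adjusted p 0.987).

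Of 10 partners outside the core, which include the histone deacetylases HDAC1 and HDAC2 and the H3 lysine 9 methyltransferases EHMT1 and EHMT2, 9 were in the table and RYBP and USP7 are on the preceding list too. In shE2F6 0 passed and 0 had an unadjusted p under 0.05 (median log2 change -0.06). The smallest p values belonged to USP7 (log2 change 0.21), CBX1 (-0.17) and HDAC2 (-0.14), each with a limma adjusted p of 1. In the other 3 knockdowns 0 passed, and those with an unadjusted p under 0.05 numbered 2 in shSMARCA4 (16.3% of all rows), 2 in shMAFK (8.77%) and 0 in shKDM1A (11.5%).

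The MAX network, the MYC, MXD and MLX proteins that compete for MAX or its sites, had 11 of 11 genes in the table. In shE2F6 0 passed and 1 was higher at an unadjusted p under 0.05 (2.55% of all rows), MLXIP, with 1874 and 1991 against 1534 and 1464 in shLUC (log2 change 0.37, limma adjusted p 0.977). It was as high in shSMARCA4 (1884 and 1991). MYCL (log2 change -0.44) and MYC (-0.47) came next in order of p. In shSMARCA4 1 of the 11 passed (4.18% of all rows), MYCN, which fell from 2708 ± 303 to 1516 ± 262 normalized tag counts (SD, n = 2). This is -0.84 on the log2 scale, with an SE of 0.20 and an adjusted p of 0.0465 in limma. That call was lost without any 1 library of shLUC, shSMARCA4, shE2F6 or shMAFK (limma adjusted p 0.0772 to 0.333), without the mean-variance trend (0.0592) and with a replicate block (0.0596). The part of the mesendoderm and endoderm markers in this value was not tested. In shMAFK and shKDM1A 0 passed, with 1 and 3 at an unadjusted p under 0.05 (8.77% and 11.5% of all rows).

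WDR5 partners in the H3 lysine 4 methyltransferase complexes had 11 of 11 genes in the table and 0 passed in any knockdown. In shE2F6 their median log2 change was 0.18 (-0.0034 over all rows), with 8 of 11 above 0 and 1 higher at an unadjusted p under 0.05 (2.55% of all rows). That gene, SETD1B, had 534 and 506 with its shE2F6 libraries and 324 and 431 with the control, a log2 difference of 0.47 whose adjusted p in limma was 0.926. SETD1B was higher still in shMAFK (648 and 658) and had 534 and 615 in shSMARCA4, and shE2F6 differed from the mean of the other 4 groups by 0.053. KMT2C (log2 change 0.59) and ASH2L (-0.37) came next. In shSMARCA4 the median was 0.32 (0.0068 over all rows), and 4 were higher and 1 lower at an unadjusted p under 0.05 (16.3% of all rows either way). There was 1 such gene in shMAFK (8.77%) and 1 in shKDM1A (11.5%).

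Germline and meiosis genes are the known targets of PRC1.6. Of 47 on the list 21 were in the table, and the others were not analysed here. The lowest row mean in the table was 19.3, so the counts below describe listed genes whose transcript was measured. They do not cover the absent genes, whose levels are unknown. In shE2F6 0 of the 21 passed with limma. At an unadjusted p under 0.05, 4 were higher (2.55% of all rows) and 0 lower (2.54%), and the median log2 change was 0.089 against -0.0034 for all rows. Against the mean of the other 4 groups this direction was not kept. There 0 of the 21 passed, and 3 were higher and 3 lower at an unadjusted p under 0.05 (9.79% of all rows either way). The shE2F6 values lay above both shLUC libraries for 7 of the 21 (20.3% of all rows), below both for 5 (20.4%) and overlapped for 9.

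The 4 genes higher against shLUC were SYCP2, TEX15, CTCFL and TEX11, the last named after its values were seen. SYCP2, part of the axis of meiotic chromosomes, had 148 and 144 normalized tag counts in shE2F6 and 101 and 75 in shLUC, and 90 to 131 elsewhere. It was the 1 gene of the list with both shE2F6 libraries above the other 8 (3% of all rows), and its promoter window, shown above, holds the E2F sequence. Against shLUC it was 0.74 higher on the log2 scale (SE 0.24), with an adjusted p of 0.885 in limma. TEX15, a factor of male meiosis, had 651 and 1024 against 467 and 551 (log2 change 0.69, SE 0.24, limma adjusted p 0.911), and TEX11 had 121 and 112 against 79 and 63 (0.71, SE 0.30, limma adjusted p 0.963). Both overlapped other groups. TEX15 had 748 in shMAFK replicate 2 and 676 in shKDM1A replicate 2, and TEX11 had 114 in shKDM1A replicate 1.

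CTCFL, the germline paralog of CTCF, had 151 and 131 in shE2F6 and 96 and 82 in the control, 0.66 apart on the log2 scale (adjusted p in limma 0.853). From the mean of the other 4 groups the shE2F6 value of CTCFL differed the other way, by -0.71 (limma adjusted p 0.156). Its values were higher in shMAFK (252 and 284, limma adjusted p 0.0619) and in shKDM1A, where it was the 1 of 21 that passed, against 0.0271% of all rows (1140 and 995, 3.57 above shLUC on the log2 scale, SE 0.19, with an adjusted p of 0.000225 in limma). Fitting the shKDM1A and shLUC libraries alone gave 0.0711. In shSMARCA4 and shMAFK 0 of the 21 passed. An unadjusted p under 0.05 was found for 0 in shSMARCA4 (16.3% of all rows), 2 in shMAFK (8.77%) and 3 in shKDM1A (11.5%).

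STAG3, a meiotic cohesin subunit whose window holds both the E2F sequence and the E-box, had 178 and 246 normalized tag counts in shE2F6 and 214 in both shLUC libraries. Of the 17 listed genes that matched a RefSeq window, 5 held the E2F sequence (STAG3, SYCP2, SYCE2, REC8 and MSH5), 4 the E-box and 0 the T-box sequence. By window, 5 of their 27 windows held the E2F sequence and 6 the E-box, beside 6.55% and 7.26% of all windows. Some windows of the same gene overlap, and no share of genes was computed. Among the 5 genes with the E2F sequence, SYCP2 and SYCE2 (172 and 152 against 110 and 136) had shE2F6 values above both controls. MSH5 (518 and 551 against 554 and 699) had values below them and below every other library, as did DMC1 (2.98% of all rows), and REC8 (356 and 534 against 444 and 413) and STAG3 overlapped them. The 5 genes were named for their windows and DMC1 for its values, all after their values were seen.

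**Figure D4:**
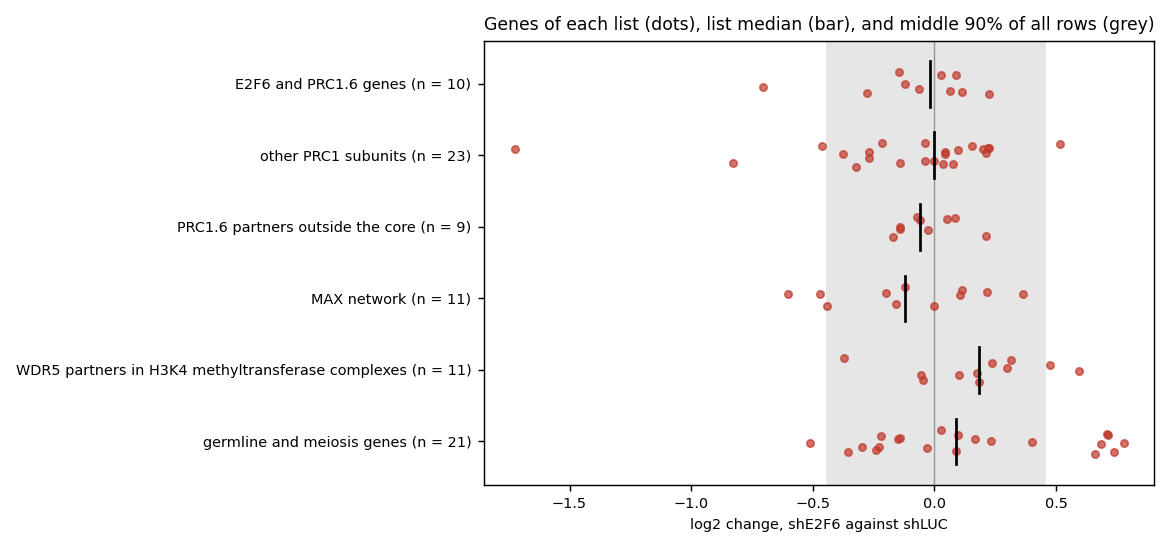
Log2 changes in shE2F6 against shLUC (horizontal axis) for every measured gene of each list (dots), with the list median as a black bar and the middle 90% of all rows in grey (-0.44 to 0.456). E2F6 is the dot at -0.70 in the top line, PHC2 that at -1.73 in the line below it, and the list medians lie between -0.12 and 0.18.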

How the data were processed

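The table used holds, per the file headers, 1 column per library, and each was matched to a sample by the description in the labels (0 columns unmatched). The deposited unit is a score, since the authors had already normalized these whole-number tag counts, with a median of 594 in shE2F6 replicate 1. STAR, STARsolo and hg38 are named in the submitters' processing notes, without roles. The counter, annotation and normalization are not given in the sources used here. Gene positions and exon lengths are from GENCODE release 29.

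Values were analysed as log2(value + 1), so the fold change of a low row is understated. A minimum row mean of 10 removed 0 rows. limma 3.58.1 (R 4.3.3) was fitted to all 14785 rows and 10 libraries with a mean-variance trend, 5 residual degrees of freedom and two-sided tests, with adjusted p-values by Benjamini-Hochberg over all rows and a threshold of 0.05. It was tested on simulated data. Tables used Python 3.11.15 and pandas 2.3.3, and plots matplotlib 3.10.9.

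The genes and lists were chosen with earlier results of these data known. The text names the 10 genes. From each of the 5 lists (other PRC1 subunits, partners outside the core, MAX network, WDR5 partners, germline and meiosis genes) it names those past the threshold against shLUC and the 3 with the smallest p in shE2F6. It also names the 3 rows most like E2F6 and the 1 least like it. Alternatives covered pseudocount, filter, scaling, variance model, which libraries and rows were fitted, a replicate block, and leaving out each library.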

Additional observations from a re-analysis of the deposited data

How the results depend on the processing

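Of the values of single genes, 6 turned sign when 1 library was left out, all in shE2F6 against shLUC, and 0 under the other alternatives. In shE2F6, shSMARCA4 and shMAFK against shLUC, 0 of the 10 genes passed under each alternative that kept both libraries of every group fitted. The log2 change of E2F6 against shLUC ran from -0.79 to -0.62 when 1 library was left out and from -0.70 to -0.63 under the other alternatives, with limma adjusted p from 0.156 to 1. Against the mean of the other 4 groups it ran from -0.82 to -0.67 when 1 library was left out. Without shKDM1A replicate 2, which leaves 1 library in that group, the shKDM1A log2 changes were 1.74 for PCGF6, -0.78 for TFDP1 and -1.28 for RNF2. In the same setting E2F6 differed by -0.79 between shE2F6 and the mean of the other 4 groups. With group weights the F-test called 1 of the 10 genes, E2F6 (limma adjusted p 0.0416), where it called 1502 of 14785 rows. Changes in shE2F6 that turned sign when 1 library was left out were those of L3MBTL2 (-0.028 to 0.26), PCGF6 (-0.079 to 0.21), RING1 (-0.31 to 0.18), RNF2 (-0.24 to 0.00043), CBX3 (-0.017 to 0.071) and WDR5 (-0.51 to 0.21). Sequencing depth is unknown, so its limits cannot be given.

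Counts over all rows moved more, and the cause was not tested. In shE2F6 the count of 0 became 21 with group weights, 5 without both shKDM1A libraries and 1 with only the libraries compared, and 0 to 5 with 1 library left out. In shSMARCA4 618 became 1306 with group weights or 1162 with the shKDM1A libraries dropped, and 89 to 1159 with 1 library left out. In shMAFK 2 became 5 with quantile normalization, 5 without the trend, 487 with group weights, 34 without both shKDM1A libraries and 20 with only the libraries compared, and 0 to 37 with 1 library left out. In shKDM1A 4 became 7 with a pseudocount of 50, 9 without the trend, 2 with group weights and 0 with only the libraries compared, and 1 to 3235 with 1 library left out. For shE2F6 against the other 4 groups 8 became 14 with a pseudocount of 50, 15 with median scaling, 17 with quantile normalization, 13 without the trend, 46 with group weights, 64 without both shKDM1A libraries and 18 with gene rows only, and 0 to 320 with 1 library left out. The F-test count of 750 became 1502 with group weights, and 188 to 4673 with 1 library left out.

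Equal replicate numbers were not read as pairs, because 2 of 10 correlations of replicate differences between groups exceeded 0.1 (range -0.0503 to 0.337). With the number as a replicate block, shMAFK had 1 changed row in place of 2 and MYCN in shSMARCA4 lost its call (limma adjusted p 0.0596). The count of the 10 genes at an unadjusted p under 0.05 became 2 in place of 1 in shSMARCA4 and 3 in place of 2 in shKDM1A. The other counts of rows and of the 10 genes past the adjusted threshold stayed within 1.5 times.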
